A study of Mus musculus with 6 samples.

Results

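The glutathione genes described here are protein-coding mouse genes from families that make, recycle or break down glutathione or use it as a substrate. These genes include the peroxidase and transferase families, and whether every product uses glutathione was not checked. They were chosen by gene name: the transferase classes Gsta, Gstk, Gstm, Gsto, Gstp, Gstt and Gstz, the microsomal transferases Mgst1 to Mgst3, the peroxidases Gpx1 to Gpx8, and Gclc, Gclm, Gss, Gsr, Chac1, Chac2, Ggt1, Ggct and Oplah. This gave 42 of the 54532 genes in the count table, and 35 of them had enough counts to be tested. The series compared livers of mice aged 5 weeks by RNA sequencing, 3 control (Ctrl) libraries against 3 from hepatocyte-specific Fam210a knockout (Fam210aHKO) mice. FAM210A is a mitochondrial inner membrane protein. Neither the promoter of the Cre nor the alleles of the controls can be stated from the sources used here. The titles, not the genotype fields, set the groups, because the fields of Fam210aHKO replicates 2 and 3 name Fam211a and Fam212a.

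Glutathione is a tripeptide of glutamate, cysteine and glycine that is made in the cytosol and reaches its highest levels in hepatocytes. Glutamate-cysteine ligase and glutathione synthetase build it, peroxidases spend it to reduce hydrogen peroxide and lipid peroxides, glutathione reductase restores it, and transferases couple it to drugs, toxins and reactive products of lipid oxidation. Cytosolic transferases work as dimers grouped into classes by sequence, several of which lie in tandem gene clusters, while the microsomal transferases are unrelated membrane proteins.

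Library totals were between 12.5 and 19.7 M counts (1 M is 1e6). Levels are counts per 1e6 counts (CPM) after scaling of the libraries by TMM factors, which remove differences in composition between libraries; ± is the SD over the n = 3 libraries of a group. Fam210a itself stood at 119, 136 and 162 CPM in Ctrl and at 31.7, 28.6 and 44.2 CPM in Fam210aHKO, without overlap. The labels do not say that each library is a separate animal, so p-values measure only the spread between these libraries, which may be technical. In whole liver, fewer cells of a type and less RNA per cell cannot be told apart. When libraries were scaled by their totals alone, written library totals below, the median log2 fold change of all 13706 tested genes moved by 0.45, from 0.02 to 0.47, so every fold change below is relative to the TMM scale, and a call that this change of scale ends is named beside its gene.

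Glutathione genes rose and fell in Fam210aHKO livers, with 5 of the 7 mu class transferases, Gsta1 and Gpx3 higher and Mgst1, Gpx1, Gstk1 and Gstz1 lower. A gene was called at an adjusted p under 0.05 in edgeR's quasi-likelihood F test across all tested genes, which called 27.5% of them, 14% higher and 13.5% lower in Fam210aHKO. Of the 35 tested glutathione genes 21 were called, 13 higher and 8 lower, which is 60% of them. The filter on low counts asked for 3 libraries at its level: 32 genes met it in each group alone, and Gsta1, Chac1 and Gpx8 met it only through Fam210aHKO, where their mean levels are higher. The median log2 fold change of the 35 was 0.29, beside 0.02 for all genes tested. In the same 13 and 8 genes no library of one group reached the other group's CPM; of all tested genes, 22% were higher and 20.7% lower without overlap. Changes of at least 2-fold were called for 10 glutathione genes higher and 5 lower, beside 7.68% and 6.93% of all tested genes. With library totals 21 glutathione genes were higher and 4 lower, beside 42.7% and 6.33% of all genes, so the count of lower genes in particular rests on the scale.

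**Figure D1:**
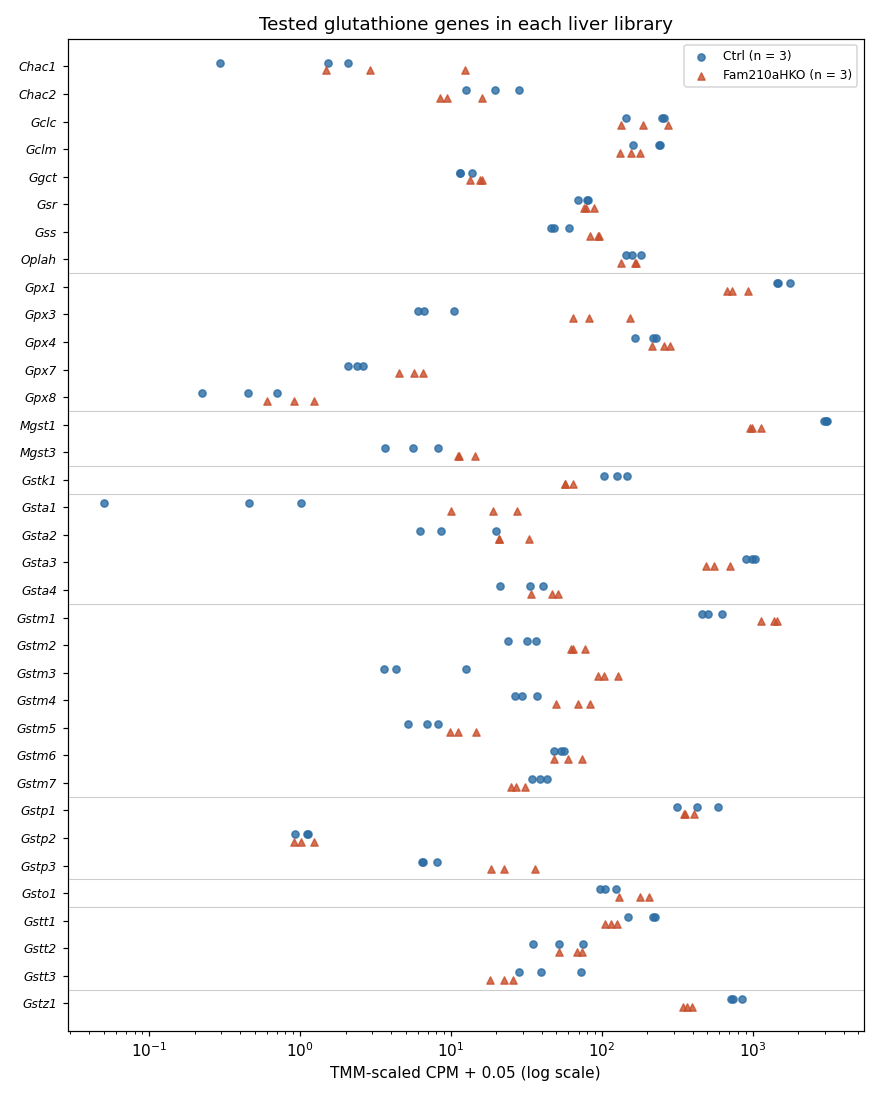
TMM-scaled CPM plus 0.05 on a log axis for the 35 tested glutathione genes, 1 point per library, circles for Ctrl and triangles for Fam210aHKO, n = 3 each. Gsta1, Gstm3 and Gpx3 stand clear of their Ctrl libraries to the right, and Mgst1, Gpx1, Gstk1 and Gstz1 to the left, while both groups mingle for most of the synthesis and breakdown enzymes in the top block.

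Among the enzymes that make and recycle glutathione only Gss was called. Gss (chr2:155563181-155592810 in mm10, minus strand), the synthetase that adds glycine in the last step, stood at 60.3, 45.9 and 47.8 CPM in Ctrl and at 94.0, 95.7 and 83.7 CPM in Fam210aHKO. Every Fam210aHKO library was above every Ctrl library, and the rise was 1.78-fold (adjusted p = 0.0022, log2 fold change 0.83, SE 0.151). The range of Gss overlaps that of Acss2 on the other strand over 22544 bp, and Acss2 had 5412 counts over all libraries against 7234 for Gss. Whether the counting used strand cannot be stated from the sources used here.

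The 2 subunits of glutamate-cysteine ligase, the rate-limiting step, were not called. Gclc, the catalytic subunit (chr9:77754535-77794485), was at 249.8, 144 and 258 CPM in Ctrl and 187, 135 and 273 CPM in Fam210aHKO, which overlap widely (adjusted p = 0.762, log2 fold change -0.13, SE 0.271). Gclm, the modifier subunit (chr3:122245557-122270732), was at 243, 161 and 238 CPM in Ctrl and 155, 132 and 179.8 CPM in Fam210aHKO (adjusted p = 0.0944, log2 fold change -0.46, SE 0.189). In both genes replicate 2 was the lowest library of its group. A fit with the replicate number as a block called Gclm lower (adjusted p = 0.0138), and with library totals its log2 fold change was -0.02.

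Gsr, the reductase that returns oxidised glutathione to its reduced form, was at 80.1, 68.9 and 81.2 CPM in Ctrl and at 76.3, 88.3 and 78.3 CPM in Fam210aHKO, with overlap (adjusted p = 0.719, log2 fold change 0.08, SE 0.138). Scaling by library totals made it a call, higher by 0.52 on the log2 scale (adjusted p = 0.0188).

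None of the breakdown enzymes was called by the TMM-scaled test of all 6 libraries with group as its only factor and low counts filtered out. Other settings called Chac1, Chac2 or Ggct. The 2 cytosolic enzymes that cleave glutathione itself had fold changes of opposite sign. Chac1 (chr2:119351229-119354381), a glutathione-specific gamma-glutamylcyclotransferase known as a target of the stress factor ATF4, was at 1.48, 0.244 and 2.02 CPM in Ctrl and at 1.44, 12.2 and 2.85 CPM in Fam210aHKO. A single library, Fam210aHKO replicate 2, was far above the others, and Fam210aHKO replicate 1 lay within the Ctrl range (adjusted p = 0.0668, log2 fold change 2.08, SE 0.769). Without that library the log2 fold change of Chac1 was 0.76 (adjusted p = 0.398). Chac1 was higher by the test without Fam210aHKO replicate 1 (adjusted p = 0.0116) or 3 (0.0459), by library totals (0.0172) and with no filter on low counts (0.0228). Chac2, its paralogue, was at 28.1, 12.6 and 19.6 CPM in Ctrl and 16.0, 9.42 and 8.42 CPM in Fam210aHKO, with Fam210aHKO replicate 1 inside the Ctrl range (adjusted p = 0.0673, log2 fold change -0.83, SE 0.306). The fit with the replicate block called Chac2 lower (adjusted p = 0.00389), as did DESeq2 (0.0221) and the fits without Ctrl replicate 2 (0.0196) or Fam210aHKO replicate 1 (0.0123). Chac2 overlaps Asb3 on the other strand, which had 910 counts over all libraries against 1433 for Chac2.

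The stretch before the RefSeq start of Chac1 (RefSeq, GRCm38.p6, plus strand, chr2:119350992-119351228) is shown because it was the only one of the glutathione genes' windows to hold the C/EBP-ATF composite motif TGATGNAA, searched on both strands; the capitals mark the match, which is on the minus strand and begins 193 bases before the start.
Chac1: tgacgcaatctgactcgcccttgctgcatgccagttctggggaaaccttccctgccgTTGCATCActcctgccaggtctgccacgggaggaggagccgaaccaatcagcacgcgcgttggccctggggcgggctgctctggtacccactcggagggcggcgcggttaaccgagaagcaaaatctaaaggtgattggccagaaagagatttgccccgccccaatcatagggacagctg
Over all genes with a RefSeq window 4.51% hold this motif, against 2.7% of the glutathione genes, 1 of 37.

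Ggct, which acts on gamma-glutamyl amino acids, was at 11.4, 13.6 and 11.5 CPM in Ctrl and at 15.9, 15.5 and 13.2 CPM in Fam210aHKO, where only replicate 3 fell inside the Ctrl range (adjusted p = 0.238, log2 fold change 0.29, SE 0.17). Library totals made Ggct a call, higher (adjusted p = 0.00499). Oplah, the 5-oxoprolinase that returns glutamate to the cycle, was at 145, 159 and 181 CPM in Ctrl and at 133, 166 and 168 CPM in Fam210aHKO (adjusted p = 0.829, log2 fold change -0.05, SE 0.153), with a log2 fold change of 0.40 by library totals. Ggt1, the cell-surface enzyme that opens extracellular glutathione, had too few counts to be tested: 0, 1 and 0 counts in Ctrl and 3, 8 and 6 in Fam210aHKO, a ratio of scaled counts of 11.3 with a 95% exact binomial interval of 1.77 to 472 for counting error only.

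The peroxidases split by gene. Gpx1 (chr9:108338903-108340343), the selenoenzyme of cytosol and mitochondria that reduces hydrogen peroxide, was at 1776, 1448 and 1479 CPM in Ctrl and 675, 724 and 928 CPM in Fam210aHKO. All Fam210aHKO libraries lay below all Ctrl libraries, and the level fell to 49.5% of Ctrl (adjusted p = 0.00365, log2 fold change -1.01, SE 0.202). Gpx3 (chr11:54902453-54910377), the secreted plasma form, went the other way, from 10.4, 6.58 and 5.98 CPM in Ctrl to 81.8, 154 and 64.8 CPM in Fam210aHKO. The lowest Fam210aHKO library of Gpx3 was thus several times the highest Ctrl library, and the rise was 13.1-fold (adjusted p = 2.94e-05, log2 fold change 3.71, SE 0.338). Per kb of gene length, the only scale on which levels of different genes are compared here, Gpx1 still exceeded Gpx3 in Fam210aHKO, 538 ± 93.3 CPM per kb against 55.3 ± 26.2.

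Gpx4, the enzyme that reduces lipid peroxides in membranes, was at 227, 220 and 167 CPM in Ctrl and 256, 282 and 215 CPM in Fam210aHKO, and was not called (adjusted p = 0.225, log2 fold change 0.30, SE 0.17); by library totals it passed as higher (adjusted p = 0.00528). Of its 100-base windows 48.4% also occur in the processed copy Gpx4-ps2 or in AC122253.3, so reads could be split between them. Gpx7, a peroxidase of the endoplasmic reticulum, rose from 2.35, 2.03 and 2.55 CPM to 4.45, 6.47 and 5.66 CPM, without overlap (2.38-fold, log2 fold change 1.25, SE 0.246, adjusted p = 0.00344). Gpx8, also of the endoplasmic reticulum, did not exceed 1.18 CPM in any library and was not called (adjusted p = 0.147, log2 fold change 1.09, SE 0.521); library totals made it a call, higher (adjusted p = 0.0264, log2 fold change 1.55).

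Summed per kb over the peroxidases, the level went from 1213 ± 138 in Ctrl to 745 ± 72.9 CPM per kb in Fam210aHKO, most of it Gpx1. Gpx2, Gpx5 and Gpx6 were below the filter. Gpx2, the form of the gut epithelium, had 2 counts in Ctrl and 22 in Fam210aHKO, a ratio of 7.31 (exact binomial interval 1.80 to 64.1), and its range overlaps that of Fntb, which had 364 counts on the other strand. Gpx6 had 28 and 18 counts, and Gpx5 had none in any library.

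Mgst1 (chr6:138140316-138156755), a transferase and peroxidase of the endoplasmic reticulum and outer mitochondrial membrane, was the most abundant glutathione gene per kb in Ctrl. It stood at 3037, 3120.0 and 2953 CPM in Ctrl and at 996, 962 and 1138 CPM in Fam210aHKO. The groups lay far apart with little spread inside each, and the level fell to 34.0% of Ctrl (adjusted p = 0.00033, log2 fold change -1.56, SE 0.208). The fall was also called by library totals, at a log2 value of -1.10 (adjusted p = 0.00137). Mgst3, a far less abundant paralogue, rose from 8.17, 5.52 and 3.63 CPM to 11.2, 11.1 and 14.3 CPM, without overlap (adjusted p = 0.0123, log2 fold change 1.09, SE 0.273). Mgst2, with 8 counts in Ctrl and 3 in Fam210aHKO, was not tested.

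Gstk1 (chr6:42245935-42250447), the kappa class transferase of mitochondria and peroxisomes, was at 147, 125 and 104 CPM in Ctrl and 56.5, 64.7 and 56.7 CPM in Fam210aHKO. No library of one group reached the other, and Gstk1 fell to 47.3% of Ctrl (adjusted p = 0.000594, log2 fold change -1.08, SE 0.159). Gstz1 (chr12:87147165-87164723), the maleylacetoacetate isomerase of tyrosine degradation, was at 848, 721 and 739 CPM in Ctrl and 398, 365 and 345 CPM in Fam210aHKO, again without overlap (48.0% of Ctrl, log2 fold change -1.06, SE 0.161, adjusted p = 0.000732). Mgst1, Gpx1, Gstk1 and Gstz1 are the 4 glutathione genes that were lower on both scales, with library totals at adjusted p-values between 0.00137 and 0.0417.

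**Figure D2:**
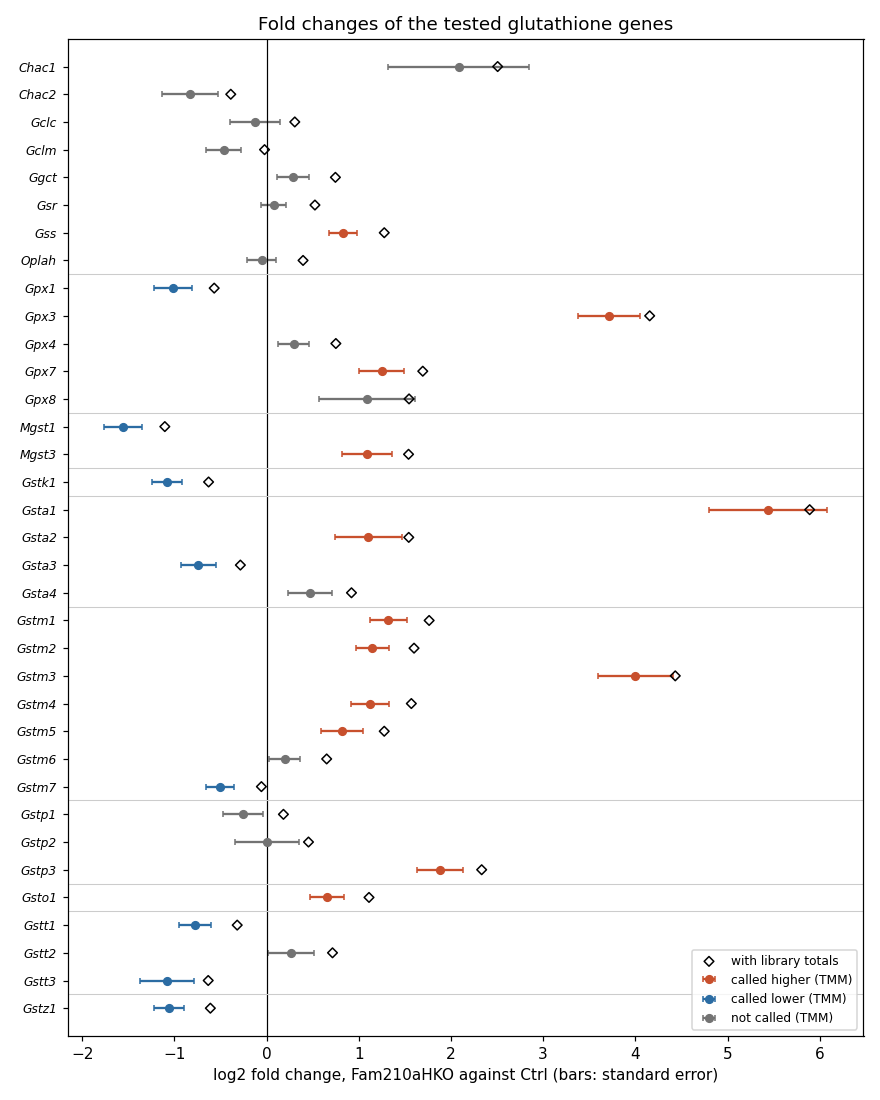
Log2 fold change, Fam210aHKO against Ctrl, of the 35 tested glutathione genes by family; filled points with SE bars are from the TMM-scaled fit, coloured by call, and open diamonds are from the fit with library totals. The diamonds lie to the right of the points, so those of all genes called lower come nearer to 0. Gsta3, Gstm7, Gstt1 and Gstt3, with diamonds between -0.63 and -0.06, are the lower genes not called with library totals.

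In the alpha class, whose members reduce lipid peroxides and detoxify their aldehyde products, the members that were most and least abundant in Ctrl moved in opposite directions. Gsta3 (chr1:21240589-21265661), the main alpha form of mouse liver, was at 995, 1031 and 895 CPM in Ctrl and 556, 486 and 709 CPM in Fam210aHKO. It fell to 59.9% of Ctrl without overlap (adjusted p = 0.014, log2 fold change -0.74, SE 0.189), but the call was lost without Fam210aHKO replicate 2 (adjusted p = 0.0731), and by library totals the log2 value was -0.28 (0.237). Gsta1 (chr9:78230656-78242684) was close to absent in Ctrl, with 11, 5 and 0 counts, and had 398, 400 and 228 counts in Fam210aHKO (0.454 ± 0.480 and 18.9 ± 8.76 CPM). This was the largest fold change of the tested glutathione genes, 43.5-fold (adjusted p = 0.00015, log2 fold change 5.44, SE 0.64). The size of the rise of Gsta1 rests on single Ctrl libraries: leaving out Ctrl replicate 1 gave a log2 fold change of 6.59 and leaving out Ctrl replicate 3 one of 4.76, with Gsta1 called each time.

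Gsta1 has near-identical neighbours. Of its 100-base windows 81.8% also occur in Gsta2, Gm3776 or Gm10639, and the longest open reading frame of Gsta1 was 99.7% identical to that of Gm3776 and 97.5% to that of Gsta2, so how reads were divided among them is uncertain. Gm3776 (chr9:78257129-78269166), a protein-coding gene that the naming rule does not take in, had 0 counts in all Ctrl libraries and 154, 164 and 105 counts in Fam210aHKO, at least 93.7-fold higher when the Ctrl group is set at 3 counts in all. Gsta2 was at 19.9, 8.52 and 6.18 CPM in Ctrl and at 20.8, 32.6 and 20.8 CPM in Fam210aHKO, where the highest Ctrl library came close to the lowest Fam210aHKO libraries (adjusted p = 0.0448, log2 fold change 1.10, SE 0.367). Gsta2 was not called without Ctrl replicate 2 (adjusted p = 0.144), Ctrl replicate 3 (0.15) or Fam210aHKO replicate 2 (0.138), nor on the FPKM values (0.0512 and 0.0524); without Ctrl replicate 1 its log2 fold change was 1.74.

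Summed over Gsta1, Gsta2, Gm3776 and Gm10639, a sum chosen after the data were seen, the level went from 12.0 ± 7.86 to 51.6 ± 18.5 CPM (adjusted p = 0.00277, log2 fold change 2.11, SE 0.40). The sum thus rose less steeply than Gsta1 alone, since Gsta2 makes up most of it in Ctrl. Gsta4, which acts on the lipid aldehyde 4-hydroxynonenal, ranged from 21.0 to 40.8 CPM in Ctrl and 33.8 to 51.5 CPM in Fam210aHKO and was not called (log2 fold change 0.47, SE 0.237, adjusted p = 0.17; 0.00826 with library totals).

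The mu class, which couples glutathione to many electrophiles and epoxides, had more members called higher than any other family, 5 of 7, with 1 lower. Gstm1 (chr3:108012255-108017973), its main member, was at 629.7, 457 and 503 CPM in Ctrl and at 1128, 1455 and 1386 CPM in Fam210aHKO. Every Fam210aHKO library was well above every Ctrl library (2.50-fold, log2 fold change 1.32, SE 0.199, adjusted p = 0.000693). Gstm3 (chr3:107963696-107969283) was at 12.5, 3.57 and 4.30 CPM in Ctrl and at 103, 127 and 94.5 CPM in Fam210aHKO, a 16-fold rise (adjusted p = 6e-05, log2 fold change 4.0, SE 0.409). Ctrl replicate 1 was the highest Ctrl library for Gstm3 and still lay far below every Fam210aHKO library; without it the log2 fold change was 4.77. Of the 100-base windows of Gstm3 13.8% recur in Gstm1, Gstm6, Gstm2-ps1 or Gm8834, and of those of Gstm1 9.05% recur in other genes. How such reads were divided is uncertain.

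Gstm2 rose from 36.7, 32.0 and 23.9 CPM to 62.5, 77.6 and 64.7 CPM (2.21-fold, SE of the log2 value 0.179, adjusted p = 0.000884). Gstm4 rose by a like amount, from 37.1, 26.4 and 29.6 CPM to 69.9, 83.5 and 49.6 CPM (2.18-fold, SE 0.205, adjusted p = 0.0022). In both genes the groups did not overlap. Gstm5, a form best known from brain and testis, stood lower, at 6.87, 8.12 and 5.18 CPM in Ctrl and 11.1, 14.6 and 9.78 CPM in Fam210aHKO (adjusted p = 0.0217, log2 fold change 0.82, SE 0.229). Its call was lost without Ctrl replicate 1 (adjusted p = 0.0614), Ctrl replicate 3 (0.0972) or Fam210aHKO replicate 2 (0.0962), and the antisense gene 4933431E20Rik overlaps it with 299 counts against 924.

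Gstm7 went against its neighbours, from 43.1, 34.5 and 38.9 CPM in Ctrl to 24.8, 30.8 and 26.8 CPM in Fam210aHKO (adjusted p = 0.0322, log2 fold change -0.50, SE 0.154). The groups did not overlap, but the call was lost under more alternatives than any other of the 8: without Ctrl replicate 1 (adjusted p = 0.0989), Ctrl replicate 3 (0.072), Fam210aHKO replicate 1 (0.108) or Fam210aHKO replicate 3 (0.0684), with no filter (0.0771), and with library totals, where the log2 fold change was -0.06. Gstm6 ranged from 48.4 to 55.7 CPM in Ctrl and 48.2 to 73.3 CPM in Fam210aHKO and was called higher only with library totals (log2 fold change 0.20 with TMM, adjusted p = 0.421; 0.65 and 0.0103 with library totals).

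All 7 mu genes lie within one stretch of chromosome 3 in the order Gstm5, Gstm7, Gstm6, Gstm3, Gstm2, Gstm1 and Gstm4, with 144.6 kb between the first and the last gene start. The 4 genes at the Gstm4 end were called higher, the 2 between Gstm5 and Gstm3 were not higher, and Gstm5 at the far end was. Of the 2 nearest tested protein-coding neighbours on each side only Ahcyl1 was called, lower (log2 fold change -0.50, adjusted p = 0.0155), while Csf1, Ampd2 and Gnat2 were not. Around the alpha genes on chromosome 9, with 3 neighbours taken on each side, Elovl5, Fbxo9, Ick, Mto1 and Eef1a1 were not called and Slc17a5 was lower (log2 fold change -0.47, adjusted p = 0.046). With 3 on each side of the pi genes, Acy3 was lower (log2 fold change -1.06, adjusted p = 0.0152) and the other 5 were not called. Next to the theta genes, 2 of 6 neighbours were called: Mif higher (log2 fold change 1.0, adjusted p = 0.00176) and Derl3 lower (-3.40, adjusted p = 0.0137).

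**Figure D3:**
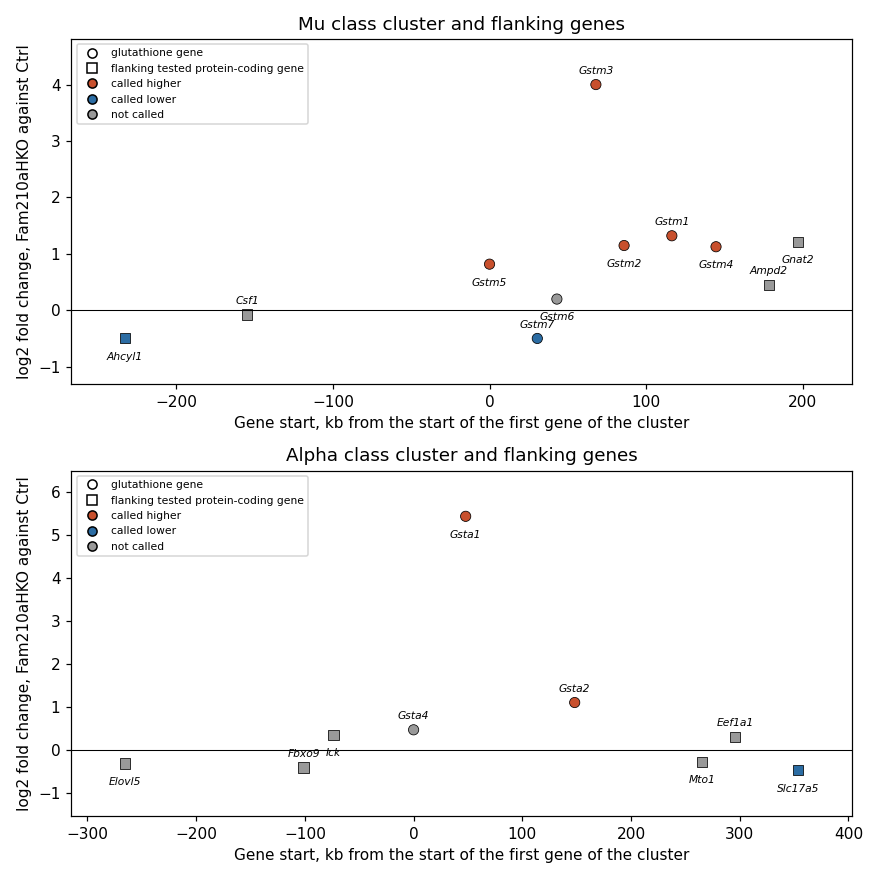
Log2 fold change, Fam210aHKO against Ctrl, against the distance of each gene start from the first gene of the cluster in kb, for the mu genes (top) and the alpha genes Gsta4, Gsta1 and Gsta2 (bottom) as circles and the nearest tested protein-coding neighbours on each side (2 for mu, 3 for alpha) as squares, coloured by call. Gm3776 is left out because it had no counts in Ctrl; Gstm3 at 4.0 and Gsta1 at 5.44 stand above all others in their panels, and the flanking genes lie between -0.50 and 1.21.

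Upstream sequences are shown for the transferases, since the members moved apart within one class: Gsta1 and Gstm3 as the transferases with the largest rises, and Gsta3 and Gstm5 as called members with a match to TGACNNNGC, the core of the antioxidant response element bound by NRF2 with small MAF proteins, searched on both strands. They are from RefSeq (GRCm38.p6) and are cut where the gene's first annotated exon base begins: Gsta1 chr9:78230419-78230655 (plus strand), Gstm3 chr3:107969284-107969424 (minus), Gsta3 chr1:21240335-21240584 (plus) and Gstm5 chr3:107895604-107895820 (plus). Capitals mark the match, which begins 121 bases before the RefSeq start in Gsta3 and 42 bases before it in Gstm5; the sequences of Gsta1 and Gstm3 hold none.
Gsta1: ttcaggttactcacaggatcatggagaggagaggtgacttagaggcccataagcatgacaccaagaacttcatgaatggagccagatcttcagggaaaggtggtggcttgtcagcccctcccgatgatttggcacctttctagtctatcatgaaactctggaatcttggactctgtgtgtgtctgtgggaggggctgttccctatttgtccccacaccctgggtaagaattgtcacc
Gstm3: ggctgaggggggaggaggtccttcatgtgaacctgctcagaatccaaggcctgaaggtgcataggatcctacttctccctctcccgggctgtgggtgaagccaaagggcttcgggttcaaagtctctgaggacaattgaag
Gsta3: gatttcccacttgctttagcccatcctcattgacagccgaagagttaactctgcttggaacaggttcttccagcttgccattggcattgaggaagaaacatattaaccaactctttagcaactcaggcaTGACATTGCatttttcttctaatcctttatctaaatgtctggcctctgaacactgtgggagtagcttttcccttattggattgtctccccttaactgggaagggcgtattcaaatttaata
Gstm5: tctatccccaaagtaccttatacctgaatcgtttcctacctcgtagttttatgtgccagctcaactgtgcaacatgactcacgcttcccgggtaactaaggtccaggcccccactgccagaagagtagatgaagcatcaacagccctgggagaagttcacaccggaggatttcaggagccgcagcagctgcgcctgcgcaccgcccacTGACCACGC
RefSeq windows, from 250 bases before to 50 after a start, were found for 37 of the 42 glutathione genes; those of Gclc, Gsr, Gsta4, Gstt2 and Oplah were missing. The motif occurred in 7 of the 37 genes (18.9%), against 14% of all genes with a window. It was present in 1 of the 13 genes called higher, Gstm5, and in 3 of the 8 called lower, Gsta3, Gstm7 and Mgst1. In Mgst1 it reads GCACGGTCA on the plus strand 56 bases before the RefSeq start. The matches of Gstm7 and Mgst1 lie past the gene's first annotated exon base, which comes after 47 and 39 bases of their windows. The other Gstm7 window holds no match. The other matches were in Gclm, Ggct and Ggt1. These matches describe letters in a window and not a bound site. Sequence farther from the start and variants of the motif were not searched. A gene without a match, such as Gsta1 or Gstm3, may therefore still hold the element elsewhere.

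The pi class turned on a single abundant gene. Gstp1 (chr19:4035407-4037921), one of the major transferases of mouse liver, was at 428, 315 and 585 CPM in Ctrl and 355, 408 and 349 CPM in Fam210aHKO, with wide overlap and a wide spread in Ctrl (log2 fold change -0.26, SE 0.214, adjusted p = 0.411; 0.18 with library totals). Gstp3, 22.1 kb away, rose from 8.0, 6.33 and 6.52 CPM to 36.1, 22.3 and 18.3 CPM, without overlap (3.68-fold, log2 fold change 1.88, SE 0.251, adjusted p = 0.000331). Gstp2 stood near 1 CPM in every library and was not called (adjusted p = 0.995, log2 fold change 0.00, SE 0.349). Gstp1 and Gstp2 share sequence: 52.8% of the 100-base windows of Gstp1 recur in other genes, and the reading frames are 98.1% identical. The sum of Gstp1, Gstp2 and Gstp-ps gave a log2 fold change of -0.27 (adjusted p = 0.369).

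Gsto1 (chr19:47854970-47864790), an omega class enzyme that reduces dehydroascorbate and arsenic compounds, was at 125, 104 and 96.9 CPM in Ctrl and 206, 179 and 130 CPM in Fam210aHKO. The lowest Fam210aHKO library lay just above the highest Ctrl library (1.58-fold, log2 fold change 0.66, SE 0.184, adjusted p = 0.0214). The call of Gsto1 was lost without Ctrl replicate 2 (adjusted p = 0.0631), Ctrl replicate 3 (0.095), Fam210aHKO replicate 1 (0.0969) or Fam210aHKO replicate 2 (0.0632), and on the FPKM values (0.0516 and 0.0528). Gsto2 had 3 and 5 counts and was not tested.

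Of the theta class, which acts on small halogenated compounds, 2 of the 3 tested members fell. Gstt1 (chr10:75783813-75798584) was at 224, 218 and 148 CPM in Ctrl and 115, 104 and 125 CPM in Fam210aHKO, without overlap (58.4% of Ctrl, log2 fold change -0.78, SE 0.177, adjusted p = 0.00768). Gstt3, its neighbour, was at 72.6, 39.7 and 28.1 CPM in Ctrl and 25.7, 22.6 and 18.2 CPM in Fam210aHKO (adjusted p = 0.0186, log2 fold change -1.08, SE 0.293). Ctrl replicate 1 was the highest library for Gstt3, whose log2 fold change without it was -0.63 (adjusted p = 0.0641); without Fam210aHKO replicate 3 the adjusted p was 0.0561. With library totals neither was called (Gstt1 -0.32, adjusted p = 0.157; Gstt3 -0.63, adjusted p = 0.0964). Gm20441, with 0 counts, overlaps Gstt3 on the same strand over 6840 bp. Of the 100-base windows of Gstt3 23.9% recur in Gm20441, and how reads lying in both genes were counted cannot be stated from the sources used here. Gstt2, in the same cluster, ranged from 34.8 to 75.0 CPM in Ctrl and 51.6 to 74.1 CPM in Fam210aHKO (adjusted p = 0.466, log2 fold change 0.26, SE 0.247) and library totals made it a call, higher (adjusted p = 0.0356). Gstt4 had 1 count in all.

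These changes altered the makeup of the cytosolic transferase mRNA. Summed over the 6 cytosolic classes, the level per kb was 1673 ± 186 CPM per kb in Ctrl and 2111 ± 155 in Fam210aHKO. The mu class made up 29.8%, 27.6% and 24.5% of it in the Ctrl libraries and 49.5%, 54.8% and 54.2% in the Fam210aHKO libraries. By the gene lengths used, pi was the largest class in each Ctrl library and mu in each Fam210aHKO library. A share within a library does not depend on the scaling of libraries, but it does depend on these lengths. They are 4344 bp for Gsta3, 1473 bp for Gstm1 and 757 bp for Gstp1. The transcripts with the longest open reading frame of these genes hold 1358, 729 and 722 windows of 100 bases. The order of the classes within a group could therefore differ with other lengths, which was not tested. The shares of the theta class went from 9.30 ± 2.55% to 4.60 ± 0.554%, of zeta from 9.07 ± 0.702% to 3.45 ± 0.443%, of alpha from 15.7 ± 2.78% to 9.96 ± 1.08%, and of pi from 35.3 ± 8.37% to 25.0 ± 1.48%. The pi shares came close to each other, at 29.2% in Ctrl replicate 2 and 26.4% in Fam210aHKO replicate 1. The omega share overlapped, 3.31 ± 0.434% in Ctrl and 4.15 ± 1.07% in Fam210aHKO.

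**Figure D4:**
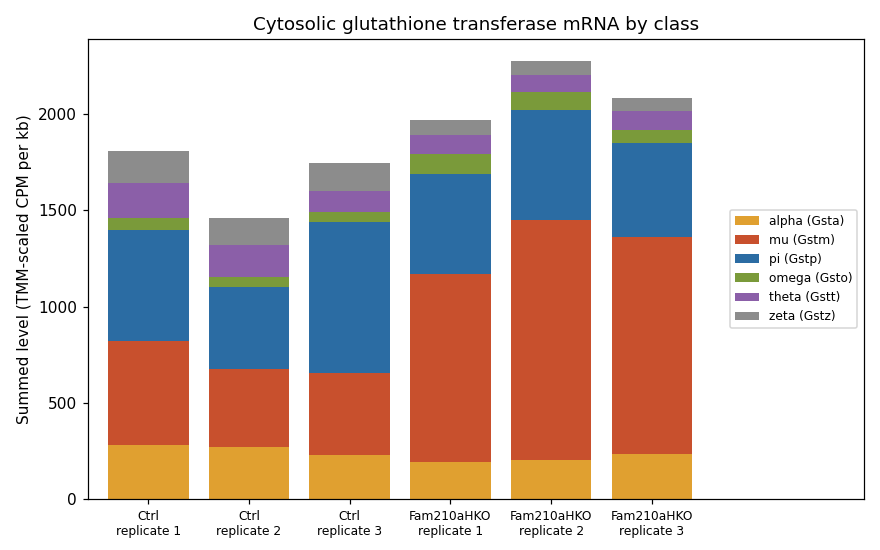
Stacked bars of the summed level per kb (TMM-scaled CPM per kb) of the 6 cytosolic transferase classes, 1 bar per library, from Ctrl replicates 1 to 3 at the left to Fam210aHKO replicates 1 to 3 at the right. The mu segment is between 24.5% and 29.8% of the bar in Ctrl and between 49.5% and 54.8% in Fam210aHKO.

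Gstm1 alone went from 21.5 ± 2.05% to 42.5 ± 3.27% of this sum, Gstp1 from 34.6 ± 8.43% to 23.2 ± 0.918%, and Gsta3 from 13.6 ± 2.36% to 6.41 ± 1.46%. In the order of all 42 genes by level per kb, Ctrl had Mgst1 (1509 ± 41.4), Gpx1 (1088 ± 126), Gstp1 (585 ± 179) and Gstm1 (360 ± 60.6) at the top, each apart from the next by more than the spread between libraries except Gstp1 and Gstm1, whose SDs are wide. In Fam210aHKO the order was Gstm1 (898 ± 117), Gpx1 (538 ± 93.3), Mgst1 (513 ± 46.5) and Gstp1 (490 ± 43.0 CPM per kb), where the last 3 differ by less than their spread. The SDs cover the libraries and not the choice of gene length, with which the order in either group could differ. Gstm3 went from place 28 to place 8 and Gpx3 from place 29 to place 11. The microsomal transferases together went from 1514 ± 42.3 to 524 ± 48.2 CPM per kb.

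Upstream of glutathione, genes of cysteine and methionine supply moved both ways: of 14 tested, 6 were higher and 6 lower (85.7% called, against 27.5% of all genes), with a median log2 fold change of -0.36. All 5 transporters of the list rose, among them Slc3a2, the heavy chain of amino acid exchangers, from 33.8 ± 5.51 to 160.0 ± 29.0 CPM and Slc1a4 from 3.65 ± 0.393 to 10.9 ± 1.89 CPM. Slc7a11, the cystine carrier that pairs with Slc3a2, stayed low at 0.029 ± 0.0502 CPM in Ctrl and 0.867 ± 0.339 in Fam210aHKO (adjusted p = 0.0024; 0.214 on log2(FPKM + 1) and 0.0526 on log2(FPKM + 0.1)), with a log2 fold change of 4.66, or 6.86 without Ctrl replicate 1. Of the 9 enzymes of the methionine cycle and of cysteine metabolism 6 fell, among them Bhmt from 10439.8 ± 601 to 1642 ± 683 CPM, Gnmt from 1516 ± 118 to 493 ± 37.0, Cdo1, which oxidises cysteine, from 2354 ± 141 to 961 ± 223, and Cbs, the first step from homocysteine towards cysteine, from 453 ± 8.46 to 249 ± 17.1 CPM. Cth, the next step, was looked at after its values were seen and went from 724 ± 116 to 404 ± 56.8 CPM (adjusted p = 0.00622), but not by library totals (0.104). Ahcy was the other lower enzyme, Mat1a and Mtr were not called, and Mat2a, the S-adenosylmethionine synthetase best known from tissues other than adult liver, rose from 83.9 ± 6.73 to 116 ± 15.7 CPM (adjusted p = 0.0358; up to 0.162 without 1 library, and lost without any one except Fam210aHKO replicate 3).

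Of 24 tested genes for other glutathione-linked enzymes and transporters, 3 were higher and 8 lower (45.8% called; 9 and 5 with library totals), with a median log2 fold change of -0.17. Both enzymes of the glyoxalase pathway, which uses glutathione to clear methylglyoxal, fell: Glo1 from 374 ± 29.5 to 109 ± 23.4 CPM (adjusted p = 5.51e-05) and Hagh from 202 ± 31.2 to 87.9 ± 5.86 CPM (adjusted p = 0.000241). Glrx, a glutaredoxin that removes glutathione from proteins, fell from 94.5 ± 23.5 to 39.9 ± 3.01 CPM, and Ethe1, the mitochondrial persulfide dioxygenase, from 59.8 ± 9.91 to 24.7 ± 1.22 CPM. The 3 higher genes were the export pumps Abcc4 and Abcc5 and Slc25a39, the mitochondrial glutathione carrier, which went from 315 ± 35.7 to 465 ± 80.7 CPM (adjusted p = 0.036; 0.0517 to 0.134 without any one library except Fam210aHKO replicate 3). By limma, Slc25a39 was also not called on log2(FPKM + 1) (adjusted p = 0.0756) or log2(FPKM + 0.1) (0.0745), nor was Abcc5 on log2(FPKM + 0.1) (0.0567). Abcc5 was not called without Ctrl replicate 1 (adjusted p = 0.0598), Ctrl replicate 3 (0.0737) or Fam210aHKO replicate 2 (0.0612). The count of higher genes was 1 without Ctrl replicate 1, Ctrl replicate 3 or Fam210aHKO replicate 2, and 1 on log2(FPKM + 0.1).

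Lists for NRF2 and ATF4, transcription factors known to act on glutathione genes, were counted beside them. Of 27 regulators and other targets of NRF2, 10 were higher and 1 lower (40.7% called; 16 and 0 with library totals, 13 and 3 with the replicate block), with a median log2 fold change of 0.37. Nfe2l2, which encodes NRF2, was not called (68.5 ± 6.89 and 81.8 ± 2.40 CPM, adjusted p = 0.187), and Pgd rose from 26.1 ± 2.03 to 77.2 ± 10.9 CPM. The 1 lower gene, the pump Abcc3, missed the threshold by library totals (adjusted p = 0.435) and without Fam210aHKO replicate 1 or 2; without Fam210aHKO replicate 3 there were 3 lower genes, and DESeq2 gave 2. Of 20 genes of the ATF4 stress response, 18 were higher and 0 lower (90% called), with a median log2 fold change of 2.71; Psat1 rose from 1.05 ± 0.427 to 67.7 ± 26.3 CPM and Trib3 from 7.58 ± 1.59 to 247 ± 104 CPM. The ATF4 and NRF2 lists share Slc7a11, and their part in the glutathione results was not tested.

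Marker genes of the liver's cells were counted in the same fit. The share called of the macrophage (30%), stellate (25%) and endothelial (25%) lists was near the 27.5% of all tested genes. Hepatocyte markers had a summed level of 163840 to 250745 CPM in Ctrl and 92071 to 116335 CPM in Fam210aHKO. Of the 10, 0 were higher and 5 lower (50% called), or 0 and 4 with library totals. Serpina1e, among the lower ones, is also counted with the male-biased liver genes below. Cholangiocyte markers, 3 higher and 0 lower of 6, summed to 49.4 to 68.8 CPM in Ctrl and 144 to 293 CPM in Fam210aHKO, most of it Spp1, while Krt7 and Cftr were too low to test. Of 10 macrophage markers 3 were higher, Gpnmb, Trem2 and Cd68, and 0 lower, at 502 to 632 and 411 to 785 CPM in sum. Stellate markers gave 2 higher and 0 lower of 8 (367 to 427 and 477 to 706 CPM), and lymphocyte and neutrophil markers 0 and 0 of 4 (6.25 to 7.93 and 4.64 to 7.71 CPM). Endothelial markers gave 0 higher and 2 lower of 8, Stab2 and Clec4g (330 to 440 and 210 to 360 CPM). Neither was called with library totals (adjusted p = 0.293 and 0.881), while the replicate block gave 4 lower. Erythroid markers gave 0 higher and 1 lower, Alas2, of 5, with sums of 82.9 to 86.0 CPM in Ctrl and 24.0 to 238 CPM in Fam210aHKO. Fam210aHKO replicate 3 stood apart in the globin genes, with Hba-a1 at 112 CPM against 12.8 and 8.39 CPM in the other Fam210aHKO libraries. All 6 libraries had the Y-linked Ddx3y at 91.4 to 138 CPM and Xist at no more than 0.487 CPM, yet 10 of 10 male-biased liver genes were lower and 7 of 10 female-biased genes higher in Fam210aHKO. The part of these shifts in the glutathione results was not tested.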

How the data were processed

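Mouse liver messenger RNA was measured in 6 libraries, 3 per group. A table of raw whole-number counts per gene and a table of FPKM values were deposited by the authors. The tools named in the submitters' processing notes are STAR, featureCounts, Trimmomatic, FastQC and DESeq2, with build mm10; strand setting and handling of multimapped reads: not given in the sources used here. The counts were tested with edgeR 4.0.16 under R 4.3.3: filterByExpr with a minimum count of 10, TMM scaling, the quasi-likelihood F test with group as the only factor (two-sided), and Benjamini-Hochberg adjustment over 13706 genes. SEs were derived from the fold change and F. CPM and its value per kb use TMM-scaled totals and the gene lengths in the table. A count of 3 was worth 0.132 to 0.261 CPM, and intervals cover counting error only.

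Members and lists were chosen with earlier results of these data known. Per-library values are given for called members, for the synthesis and breakdown enzymes and for the most abundant member of each family, and up to 4 called genes per direction of each related list are named; Ahcy, Mat1a, Mat2a, Mtr, Hba-a1 and the genes beside the clusters were named after their values were seen. Identity between copies was computed from the longest open reading frames of GENCODE M21 transcripts, in place of proteins, and from shared 100-base windows. Libraries of the same replicate number deviated together (correlations 0.245, 0.182 and 0.155, against -0.141 to -0.0262 for other pairs). The main test did not use these numbers, whose meaning cannot be stated from the sources used here, so it leaves out a possible pairing. A fit with the numbers as a block was run as an alternative and is given where it changed the call of a glutathione gene.

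Alternatives were library totals, RLE and upper-quartile scaling, DESeq2 1.42.0, limma-voom (limma 3.58.1), no filter, CPM above 1 in 3 libraries, a fit of protein-coding genes, limma on FPKM values (log2 after adding 1 or 0.1), each library left out, the replicate block and, added after the data were seen, near-identical copies summed. The test was checked on simulated data.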

Additional observations from a re-analysis of the deposited data

How the results depend on the processing

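The counts of glutathione genes depended mainly on the scaling of the libraries. With library totals, 5846 genes in all were higher and 868 lower, and 21 glutathione genes were higher and 4 lower; the cause was not tested. The summed cytosolic transferase level per kb was then 1436 in Ctrl and 2467 in Fam210aHKO, and by the deposited FPKM 2454 and 2954, whereas the mu share did not change, since a share does not depend on library scaling. Without 1 library, 10 to 14 glutathione genes were higher and 6 to 10 lower, and all genes gave 1338 to 1896 higher and 1335 to 1834 lower. The other alternatives gave 11 to 15 higher and 7 to 9 lower. The 15 came from the fit with no filter, which also tested genes too low for the main test. The replicate block gave 13 higher and 10 lower glutathione genes, adding Gclm and Chac2 and changing no other call among them. Over all tested genes the block gave 2433 higher and 2463 lower, against 1922 and 1852 in the main fit. Fold changes near 0 changed sign for genes that were not called: Gclc to 0.31 with library totals and 0.087 without Fam210aHKO replicate 2 (lowest -0.43, without Fam210aHKO replicate 3), Gsr to -0.0079 without Ctrl replicate 2 (the highest with 1 library left out was 0.10, without Fam210aHKO replicate 1), Gstp1 to 0.18 with library totals, and Oplah to 0.40 with library totals, 0.016 without Ctrl replicate 3 and 0.030 without Fam210aHKO replicate 1. Gstp2 went to -0.0081 with RLE, -0.0086 with DESeq2, -0.019 with limma-voom, -0.0077 with CPM above 1 in 3 libraries, -0.010 with protein-coding genes only, -0.042 and -0.064 on log2(FPKM + 1) and log2(FPKM + 0.1), and, without 1 library, to between -0.14 and 0.095. The common biological coefficient of variation was 0.196, and with 3 libraries a group the SE of the log2 fold change was 0.521 for Gpx8 and 0.349 for Gstp2, both near or below 1 CPM.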

Other observations

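Genes of selenoprotein synthesis and transport were counted as well, in a list that also holds selenoproteins such as Dio1 and Msrb1. So was a list set up for superoxide and peroxide removal outside glutathione, which also holds Txnip and Msra. The lists share Msrb1 and Txnrd2. Of 16 tested genes of selenoprotein synthesis and transport, 0 were higher and 5 lower (31.2% called, near the 27.5% of all tested genes; 6 and 2 with library totals; 3 lower without Ctrl replicate 1 or Fam210aHKO replicate 2), with a median log2 fold change of -0.20. Dio1, the selenoenzyme that activates thyroxine, fell from 173 ± 21.4 to 40.6 ± 21.9 CPM (SD, n = 3), and Msrb1, a methionine sulfoxide reductase, from 302 ± 46.2 to 132 ± 18.2 CPM. Sephs2, which makes the selenium donor, fell from 734 ± 158 to 418 ± 21.8 CPM but was not called with library totals (adjusted p = 0.163). Of the 18 genes of the superoxide and peroxide list, 2 were higher and 8 lower (55.6% called), with a median of -0.41. The counts were 4 and 3 with library totals. Leaving out Ctrl replicate 1 or Fam210aHKO replicate 1 left 5 lower, and leaving out Ctrl replicate 2 or 3 or Fam210aHKO replicate 1 or 3 left 1 higher, as did the FPKM values. Cat, the peroxisomal catalase, fell from 3234 ± 798 to 1255 ± 183 CPM, and Prdx5, a peroxiredoxin of mitochondria and peroxisomes, from 222 ± 23.2 to 120.0 ± 16.1 CPM.

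Of 14 xenobiotic receptors and their P450 targets, 1 was higher and 3 lower (28.6% called, near that same background; 5 and 2 with library totals, 2 and 5 with the replicate block). Nr1i3, the receptor CAR, fell from 36.8 ± 8.05 to 11.9 ± 2.70 CPM, and its target Cyp2c29 from 894 ± 155 to 377 ± 106 CPM, while Cyp2c55 rose from 1.44 ± 0.532 to 6.66 ± 1.15 CPM. No explanation of these values was tested.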
